A study of Mus musculus with 15 samples.

Results

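The genes described here were those whose signal was lower in every array lacking Klf3 than in every array with intact Klf3. A gene was taken where the highest of the 7 Klf3-deficient arrays lay under the lowest of the 8 Klf3-intact arrays and the mean of the 7 was at least 0.35 lower on the log2 scale. Of 21789 transcript clusters with 1 gene symbol, 52 met both limits (0.239%), and 43 remained after 13 named genes were left out, of which 9 met the limits. These genes were thus chosen by their log2 signals in all 15 arrays, and their difference between the 7 and the 8 arrays is given as a description, with no test. The choice depended on the scaling: 28 of the 43 were found again after quantile normalization and 30 after centring each array on its median. All 43 differences stayed below 0 under both, which is no support, since the genes were chosen to differ by at least 0.35. The same limits turned round were met by 177 genes with higher signal.

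The study measured RNA from TER119+ cells of mouse fetal liver at E13.5 in the FVB/NJ strain, with 1 Affymetrix array per sample. Klf3-intact arrays were 4 from wild-type embryos (WT) and 4 from embryos homozygous for a gene trap in Klf8 (Klf8gt/gt, here Klf8gt). Klf3-deficient arrays were 3 from Klf3-/- embryos (Klf3KO) and 4 from Klf3-/- Klf8gt/gt embryos (DKO). The labels name no driver or cell type that would limit either allele, and samples were matched by litter only where that could be done. The labels do not say that each array is a separate embryo, so p-values take in no more than the variation among these arrays, some of which may be technical. Klf3 signal itself lay between 11.06 and 11.73 in the deficient arrays and between 10.12 and 10.51 in the intact ones, so this cluster did not fall with the labelled loss; where its probes lie relative to the deletion is not given, and it does not check the labels. Klf8, a gene known to be repressed by KLF3, read 6.85 to 8.89 in the deficient arrays and 5.13 to 5.55 in the intact ones, without overlap, as the Klf3 labels divide them. Within the intact arrays Klf8 averaged 5.36 ± 0.18 (SD, n = 4) in WT and 5.39 ± 0.09 (SD, n = 4) in Klf8gt, below the array medians in both, so it does not check the trap there. Within the deficient arrays Klf8 read 8.42 to 8.89 in Klf3KO (mean 8.71) and 6.85 to 8.04 in DKO (mean 7.29). These did not overlap, as the Klf8 labels divide them.

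TER119 marks maturing red cell precursors, and beads against it also carry along other fetal liver cells in some number. KLF3 is a zinc finger protein that binds CACCC elements and recruits the corepressor CtBP, so it is known mainly as a repressor. KLF1, the activator of the same family, binds like elements and switches on both the globin programme and Klf3, and KLF3 in turn keeps Klf8 low. Genes with lower signal without a repressor are thus the less studied side of its loss.

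Promoter windows of 250 bases before to 50 bases after the start were available from RefSeq (GRCm38.p6) for 37 of the 43 genes. The 4 shown belong to Ppm1e and Ypel5, 2 of the genes with the largest differences, and to Dnajb2 and Tuba4a, which lie close together on chromosome 1. Capitals mark CACCC, the core of the element that Kruppel-like factors bind, or its reverse complement GGGTG.
Ppm1e, chr11:87358945-87359244, minus strand: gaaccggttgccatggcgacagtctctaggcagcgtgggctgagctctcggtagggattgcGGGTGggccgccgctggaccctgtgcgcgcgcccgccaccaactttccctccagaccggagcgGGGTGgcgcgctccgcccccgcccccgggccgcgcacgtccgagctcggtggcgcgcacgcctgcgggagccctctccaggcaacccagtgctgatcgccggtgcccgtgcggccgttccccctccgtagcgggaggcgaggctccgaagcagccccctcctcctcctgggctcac
Ypel5, chr17:72836378-72836677, plus strand: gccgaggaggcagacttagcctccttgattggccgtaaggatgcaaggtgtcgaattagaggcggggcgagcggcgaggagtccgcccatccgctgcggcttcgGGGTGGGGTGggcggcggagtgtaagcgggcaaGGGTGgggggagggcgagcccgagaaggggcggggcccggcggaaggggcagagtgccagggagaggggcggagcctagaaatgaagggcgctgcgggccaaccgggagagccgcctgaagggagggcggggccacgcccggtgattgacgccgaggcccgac
Dnajb2, chr1:75236173-75236472, plus strand: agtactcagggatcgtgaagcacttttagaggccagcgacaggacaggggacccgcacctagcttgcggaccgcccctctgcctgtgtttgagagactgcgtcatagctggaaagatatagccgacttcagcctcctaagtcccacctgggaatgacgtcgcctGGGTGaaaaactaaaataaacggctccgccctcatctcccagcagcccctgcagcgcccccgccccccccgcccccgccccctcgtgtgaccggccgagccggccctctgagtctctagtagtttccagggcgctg
Tuba4a, chr1:75219245-75219544, minus strand: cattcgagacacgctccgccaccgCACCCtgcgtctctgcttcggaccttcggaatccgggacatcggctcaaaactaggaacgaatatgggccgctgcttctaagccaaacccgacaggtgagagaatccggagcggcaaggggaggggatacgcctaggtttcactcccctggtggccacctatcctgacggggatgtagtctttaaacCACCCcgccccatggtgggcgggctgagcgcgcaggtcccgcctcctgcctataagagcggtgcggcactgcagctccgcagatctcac
CACCC occurred on either strand 2 times in the Ppm1e window, 3 times in that of Ypel5, 1 time in that of Dnajb2 and 2 times in that of Tuba4a. Taking the first window of each gene, 25 of 37 held it (67.6%), beside 56.7% of all 27025 genes with a window and 62.7% of the 8706 whose mean signal lay above the array medians. The longer form CCNCNCCC, where N is any base and which can overlap CACCC, occurred in 67.6% of the lowered genes, 49.1% of all genes and 69.9% of the genes above the medians. Base composition ran alongside, since the median GC content was 61.3% in the lowered genes, 61.3% in the genes above the medians and 52.7% in all. The GATA-type words AGATAA and TGATAA were found in 10.8% and 8.11% of the lowered genes, against 11.4% and 9.26% of all genes and 6.40% and 4.01% of the genes above the medians. A match is a description of the letters in the window and not of binding.

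The mean of the 7 deficient arrays was lower by a median of 0.60 on the log2 scale over the 43 genes, from -0.94 for Mat1a to -0.35 for Hif3a. In 37 genes both means lay above the array medians (6.28 to 6.41), and there the signal was 1.28 to 1.93-fold lower, with a median of 1.54-fold. In the other 6 (Tlr6, Mecom, Clec4e, Fbp1, Blnk and Gja4) the deficient mean lay below the array medians, and no fold is given. The gap between the highest deficient and the lowest intact array was over 0.1 in 14 genes and under 0.05 in 15. Just inside the limit on size were Hif3a, Tmem33 (-0.36) and Gja4 (-0.36), and just outside it Pitrm1 (-0.34), Map2k3 (-0.33) and Mcmdc2 (-0.33). Blnk, Scrn3 and Clec4e were the members with the narrowest gaps. Just outside on separation, the highest deficient and the lowest intact array were equal in Natd1 (7.98), Gfap (6.56) and Tmem86b (8.50).

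**Figure D1:**
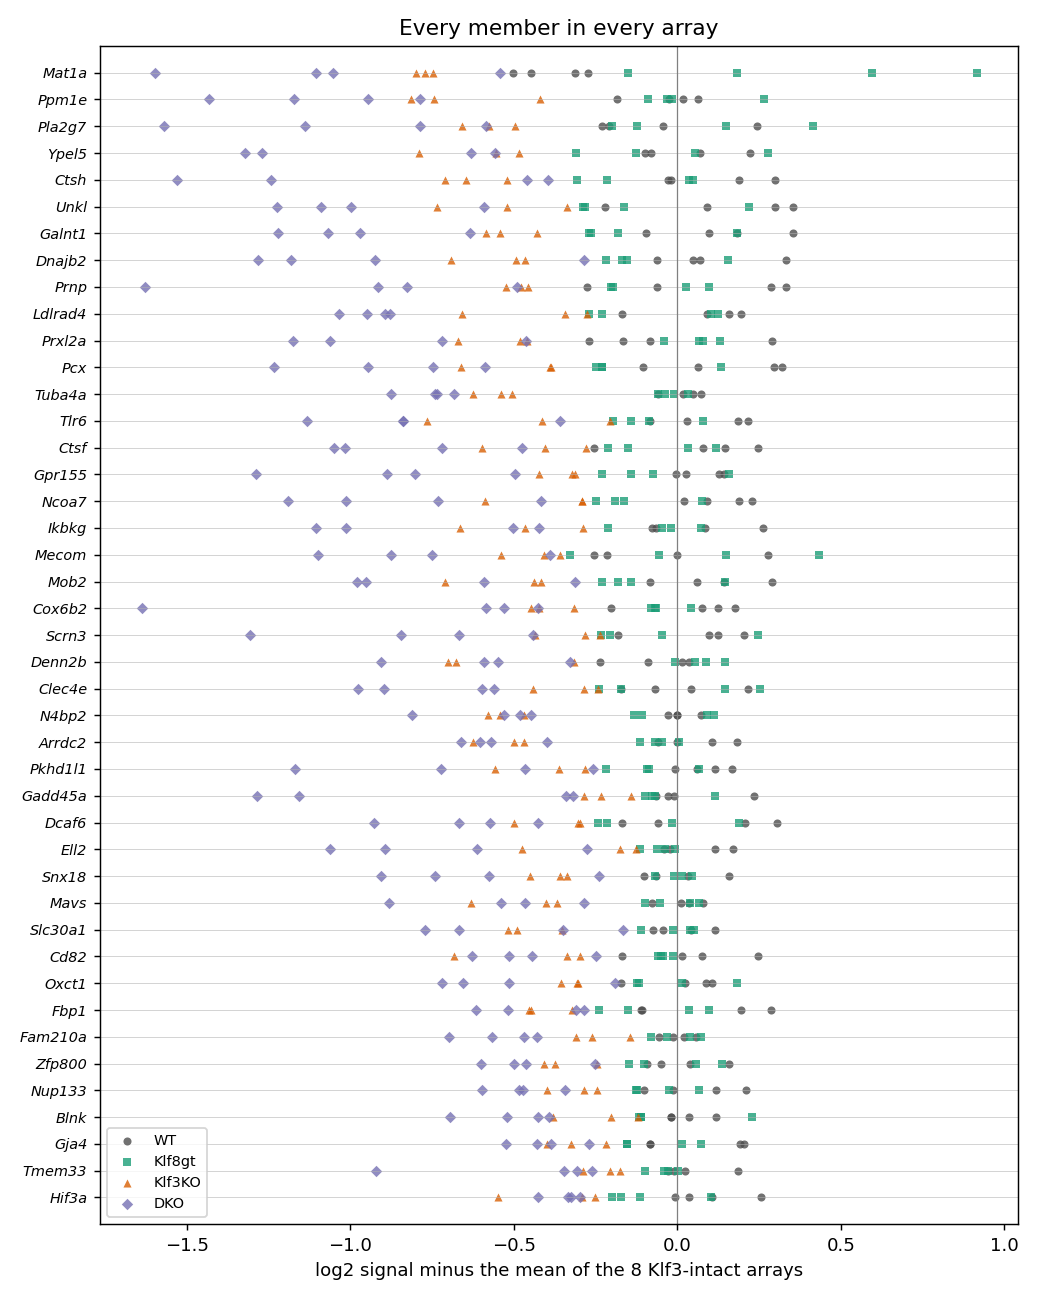
Log2 signal of the 43 genes in each of the 15 arrays, minus the gene's mean over the 8 Klf3-intact arrays, with genes ordered by the difference between deficient and intact means. Each point is 1 array, and in every row the 7 deficient arrays lie left of the 8 intact ones, with the widest gap in Tuba4a (0.45).

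The roles below were assigned by hand once the genes were known. Metabolic and redox enzymes made up 9 of the 43, with a median difference of -0.71 between deficient and intact arrays. Mat1a, the liver form of methionine adenosyltransferase, which makes S-adenosylmethionine, had the largest difference of all (-0.94, 1.93-fold lower). Its deficient arrays read 5.77 to 6.82 with a median of 6.57, and its intact arrays 6.86 to 8.28 with a median of 7.16. The deficient mean (6.42) lay only just above the highest array median (6.41), so the fold rests on signal near that line. Klf3KO differed from WT by -0.39, and DKO from Klf8gt by -1.46. The intact side was itself spread, since the 4 Klf8gt arrays (7.22, 8.28, 7.55 and 7.96) all lay above the 4 WT arrays (6.86, 6.92, 7.10 and 7.06). Signal of 9 hepatocyte markers, among them Alb and Afp, was also higher in Klf8gt than in WT, with a mean of 12.29 ± 0.15 (SD, n = 4) in WT, 12.82 ± 0.27 (SD, n = 4) in Klf8gt, 12.46 ± 0.13 (SD, n = 3) in Klf3KO and 12.27 ± 0.54 (SD, n = 4) in DKO. Their part in the Mat1a result was not tested.

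Pla2g7, a secreted phospholipase that breaks down platelet-activating factor, read 6.52 to 7.60 (median 7.44) without Klf3 and 7.86 to 8.51 (median 8.01) with it, a difference of -0.83. Galnt1, which starts mucin-type O-glycosylation, was 1.72-fold lower, with deficient arrays at 9.24 to 10.03 (median 9.83) and intact arrays at 10.19 to 10.82 (median 10.46). Prxl2a, a peroxiredoxin-like protein, was among the brighter genes, at 10.57 to 11.28 (median 11.07) against 11.48 to 12.03 (median 11.76). Pyruvate carboxylase (Pcx), the mitochondrial enzyme that makes oxaloacetate from pyruvate, spanned 8.77 to 9.62 (median 9.35) without Klf3 and 9.76 to 10.33 (median 9.99) with it. The groups of these 4 genes were apart by 0.14 to 0.26, more than the median gap of 0.08 over the whole set.

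Cox6b2, a cytochrome c oxidase subunit best known from testis, read 7.90 to 9.22 (median 9.09) against 9.34 to 9.72 (median 9.53). Scrn3 was separated by less than 0.01, at 7.95 to 9.02 (median 8.82) in deficient and 9.02 to 9.50 (median 9.28) in intact arrays. Oxct1, the enzyme that lets cells use ketone bodies, differed by -0.44 and Fbp1, a gluconeogenic phosphatase with very low signal (4.18 to 5.09 over all arrays), by -0.42. Among related enzymes, Pck1 differed by 0.00, Pck2 by -0.12, Bdh1 by -0.10 and Acat1 by -0.23, with overlapping arrays; these relatives were picked after the 43 were known and are given as values only.

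Genes of protein quality control and breakdown made up 6 of the 43, with a median difference of -0.77. Ypel5, a small zinc-binding protein found with the CTLH ubiquitin ligase complex, read 8.57 to 9.41 (median 9.26) without Klf3 and 9.58 to 10.17 (median 9.88) with it, 1.74-fold lower. Its paralogue Ypel4 differed by -0.81 but its arrays overlapped, while Ypel3 differed by -0.11. Subunits of the CTLH complex ranged from -0.30 for Rmnd5a to 0.13 for Maea, which anchors erythroblasts to macrophages, and none had separate groups. Unkl, a RING finger protein, was 1.72-fold lower, at 9.42 to 10.31 (median 9.91) against 10.36 to 11.00 (median 10.61), whereas a dimmer second cluster of the gene differed by only -0.04. Dnajb2, a cochaperone that hands clients of HSP70 to the proteasome, read 7.85 to 8.85 (median 8.44) against 8.92 to 9.47 (median 9.13).

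The lysosomal cysteine proteases Ctsh and Ctsf were both in the set. Ctsh read 6.14 to 7.27 (median 7.02) without Klf3 and 7.36 to 7.97 (median 7.67) with it, and Ctsf 7.50 to 8.27 (median 7.95) against 8.29 to 8.80 (median 8.60). Other cathepsins differed by -0.43 (Ctss), -0.35 (Ctsd) and -0.05 (Ctsb), with overlapping arrays. Dcaf6, a substrate receptor of CUL4 ubiquitin ligases, differed by -0.53.

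Signalling proteins were the largest class, with 12 genes and a median difference of -0.61. Ppm1e, a serine/threonine phosphatase that acts on PAK and AMPK kinases, was the second of the 43 by size, at -0.90 or 1.87-fold lower. Its WT arrays read 7.72, 7.76, 7.52 and 7.68 and its Klf8gt arrays 7.67, 7.68, 7.61 and 7.97. Without Klf3 the values were 7.28, 6.96 and 6.89 in Klf3KO and 6.75, 6.91, 6.53 and 6.27 in DKO, so that the groups were apart by 0.24. Ldlrad4, an inhibitor of TGF-beta signalling, read 6.45 to 7.21 (median 6.60) against 7.21 to 7.68 (median 7.58), with groups that nearly touched. Gpr155, a lysosomal membrane protein that senses cholesterol, spanned 7.75 to 8.72 (median 8.54) without Klf3 and 8.80 to 9.19 (median 9.04) with it. Mob2, a regulator of NDR kinases, was 1.55-fold lower, at 9.53 to 10.20 (median 9.92) against 10.28 to 10.80 (median 10.50).

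Several of the signalling genes act in innate immunity. Ikbkg encodes NEMO, the regulatory subunit of the kinase that activates NF-kappaB, and read 8.13 to 8.95 (median 8.73) without Klf3 and 9.02 to 9.50 (median 9.20) with it, while Ikbkb, a catalytic subunit, differed by 0.11. Mavs, the mitochondrial adaptor of RIG-I, differed by -0.51 with groups 0.18 apart, and Tbk1 and Irf3 downstream of it by 0.03 and 0.09. Tlr6, a receptor for bacterial lipopeptides, differed by -0.65. Other Toll-like receptors measured ranged from -0.58 for Tlr4 to -0.06 for Tlr3, with overlapping arrays. Clec4e, a receptor for mycobacterial glycolipids, differed by -0.57 and Blnk, an adaptor of B cell receptor signalling, by -0.39. Tlr6, Clec4e and Blnk were all at low signal. Arrdc2 and N4bp2 had the widest gaps after Tuba4a. Arrdc2, an arrestin-domain protein, read 7.05 to 7.31 (median 7.14) against 7.60 to 7.89 (median 7.69), and N4bp2 8.34 to 8.70 (median 8.62) against 9.01 to 9.26 (median 9.14). Denn2b, an exchange factor for Rab GTPases, differed by -0.58. Txnip, a relative of Arrdc2, differed by -0.35 and missed separation narrowly, while Arrdc3 differed by -0.10.

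Membrane, transport and structural proteins numbered 10, with a median difference of -0.46. Tuba4a, an alpha tubulin, was the most cleanly separated of the 43: deficient arrays read 10.97 to 11.34 (median 11.16) and intact arrays 11.78 to 11.91 (median 11.85). Among its relatives, Tuba1a was 0.59 higher, while Tuba8 differed by -0.29 and Tuba3a by -0.14, all with overlapping arrays. The prion protein gene Prnp read 7.46 to 8.63 (median 8.57) against 8.81 to 9.42 (median 9.07). Nup133, a scaffold nucleoporin of the Y complex, differed by -0.40, whereas the 8 other subunits measured lay between -0.09 and 0.04. Cd82, a tetraspanin, was the brightest of the set at 11.94 to 12.87 over all arrays and differed by -0.45. Slc30a1, which exports zinc from the cell, differed by -0.47, where other Slc30a transporters ranged from -0.36 (Slc30a9) to 0.05 (Slc30a2) with overlapping arrays. Snx18 differed by -0.52, Pkhd1l1 by -0.55, Fam210a by -0.41, and Tmem33 and Gja4, the gap junction protein connexin 37, by -0.36 each.

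Transcription and growth arrest genes numbered 6, with a median difference of -0.53. Ncoa7, a coactivator of nuclear receptors, was 1.57-fold lower, at 8.56 to 9.46 (median 9.16) against 9.50 to 9.98 (median 9.80). Gadd45a, a stress-induced growth arrest gene, read 10.59 to 11.73 (median 11.55) against 11.77 to 12.11 (median 11.83), while Gadd45b differed by 0.32 and Gadd45g by 0.01. Ell2, an elongation factor of RNA polymerase II, differed by -0.52 and its paralogue Ell by 0.05. Mecom, a stem cell transcription factor, differed by -0.63 at low signal, and by -0.12 in a second cluster. Zfp800 differed by -0.41 and Hif3a by -0.35, where Hif1a differed by -0.11.

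The trap in Klf8 was compared on each Klf3 background. The choice did not contrast Klf8gt with WT, but it required all 8 of these arrays to lie above the other 7, which favours genes with a narrow intact side, so the counts are a description. Between Klf8gt and WT arrays, 0 of the 43 passed an adjusted p of 0.05 (limma, two-sided, Benjamini-Hochberg over 23410 clusters), as did 0 of all clusters (0%), and 1 had an unadjusted p under 0.05, where 13.4% of all clusters did (6.23% lower and 7.16% higher). That gene was Mat1a, the only one of the 43 whose Klf8gt arrays all lay above its WT arrays (2.47% of all clusters; 0 of the 43 had them all below, 2.89% of all). It was higher in Klf8gt by 0.77 ± 0.21 (SE) with an adjusted p of 0.251 by limma. The median over the 43 was -0.10, beside -0.02 over all clusters, and 37 of 43 lay below 0, beside 53.8% of all. In a fit of brighter clusters only, which kept 38 of the 43, 32 of the 38 lay below 0, beside 39.6% of those clusters. Without Klf8gt replicate 1 Mat1a passed the threshold, as did 1683 of all 23410 clusters.

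Values were lower again in DKO than in Klf3KO arrays for most of the set, and whether the trap was the cause was not tested. DKO was below Klf3KO in 42 of 43 genes, where 54.4% of all clusters lay below 0, with a median of -0.30 beside -0.02 over all clusters and a range of -0.56 to 0.02. None of the 43 passed the adjusted threshold by limma, where 0.047% of all clusters did in either direction, but 17 were lower at an unadjusted p under 0.05 (39.5%), beside 7.58% of all, and 0 were higher, beside 5.28%. In 9 genes every DKO array lay below every Klf3KO array (20.9%, against 5.45% of all clusters): Galnt1, Ldlrad4, Tuba4a, Gpr155, Scrn3, Clec4e, Gadd45a, Fam210a and Blnk. In 0 genes did every DKO array lie above, against 4.5% of all. These counts are not independent of the choice. The choice used the same 7 arrays, weighed 4 DKO against 3 Klf3KO arrays, and spreads differed, with the DKO SD above the Klf3KO SD in 40 of 43 genes, so that low DKO values could bring a gene into the set; the counts are given as a description. The same contrast had a median of -0.30 over 18 late erythroid maturation genes and of -0.74 over 15 macrophage markers. With the erythroid signal as a covariate 37 of the 43 lay below 0, and with the macrophage signal 35. With brighter clusters only, 37 of 38 lay below 0, beside 59.7% of those clusters.

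Ldlrad4 had the smallest adjusted p, at 0.128 by limma, with a difference of -0.51 ± 0.12 (SE): Klf3KO averaged 7.06 ± 0.20 (SD, n = 3) and DKO 6.54 ± 0.07 (SD, n = 4). Gadd45a had the largest difference, -0.56 ± 0.20 (SE) with an adjusted p of 0.245 by limma, from 11.65 ± 0.07 (SD, n = 3) to 11.10 ± 0.52 (SD, n = 4). Gpr155 differed by -0.52, Scrn3 by -0.50, Prnp by -0.48 and Ell2 by -0.45. For 9 genes the difference was within 0.1 of 0, among them N4bp2 (95% interval -0.24 to 0.17), Arrdc2 (-0.21 to 0.15), Cd82 (-0.27 to 0.23) and Hif3a (-0.19 to 0.23). The interval of Mavs reached -0.32 and so included the median of the set. By role, the median was -0.40 for the metabolic genes and for the transcription genes, -0.35 for protein breakdown, -0.28 for signalling and -0.22 for membrane and structure. Without DKO replicate 1, Ell2 and Gpr155 passed the adjusted threshold, and the count over all clusters went from 11 to 81.

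**Figure D2:**
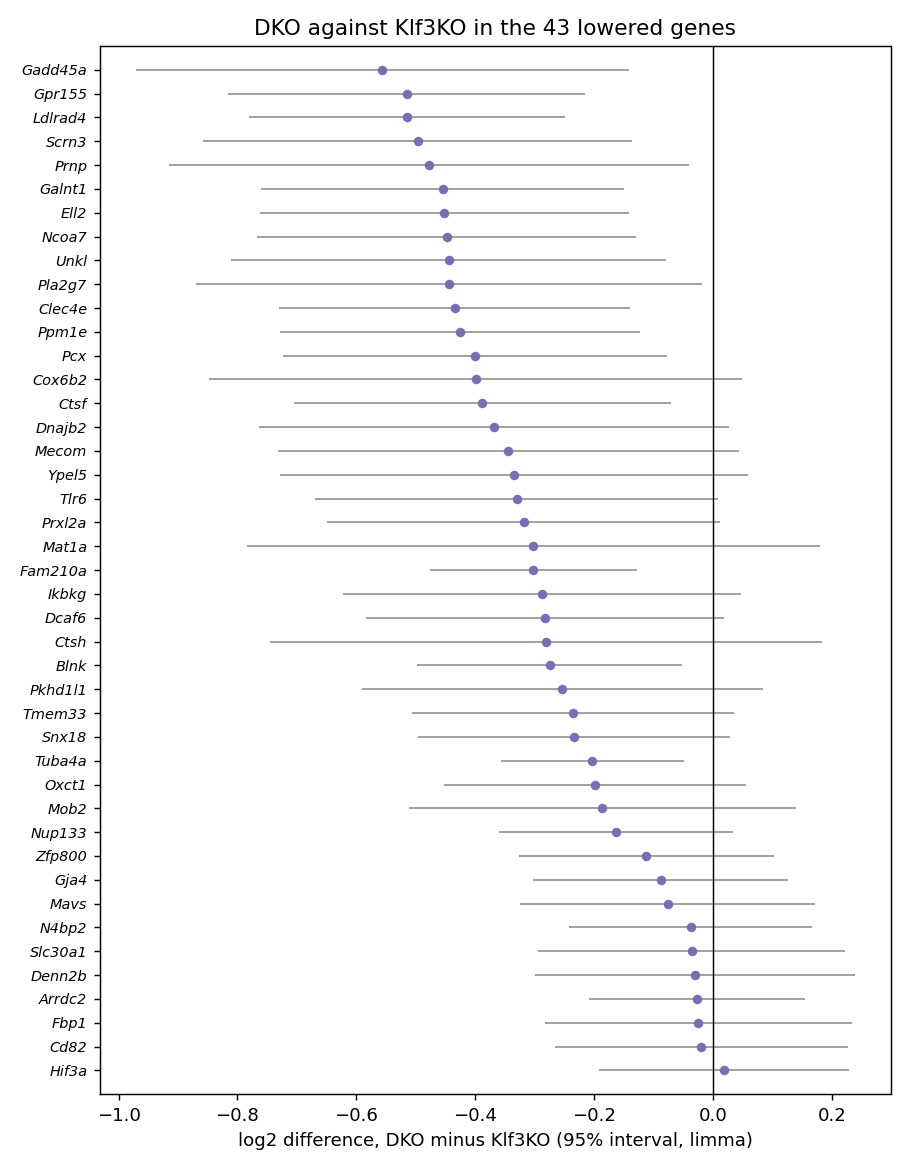
Log2 difference between DKO and Klf3KO arrays for the 43 genes, with 95% intervals from limma, ordered by size. Points lie left of 0 for 42 genes, from -0.56 for Gadd45a, and 0.02 for Hif3a.

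Set side by side, Klf3 loss gave a median of -0.48 between Klf3KO and WT and of -0.71 between DKO and Klf8gt, and the second was the larger in 37 of 43 genes. The interaction of the genotypes measures that difference, on arrays that the choice also used, and 0 of the 43 passed the adjusted threshold by limma, as did 0.00427% of all clusters in either direction. At an unadjusted p under 0.05, 5 genes were lower (11.6%, beside 8.79% of all): Mat1a, Ppm1e, Ldlrad4, Clec4e and Fam210a, and 0 were higher, beside 5.64%. For Mat1a the interaction was -1.07 ± 0.31 (SE) with an adjusted p of 0.182 by limma. Without Klf8gt replicate 1 it passed, as did 718 of all clusters, against 1 with all arrays. The interaction was below 0 in 37 of 43 genes, beside 49.8% of all clusters. Its median over the 43 was -0.18, and it was -0.069 after quantile normalization. With brighter clusters only, the interaction was below 0 in 34 of 38 genes, beside 63.6% of those clusters, whose median was -0.09.

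**Figure D3:**
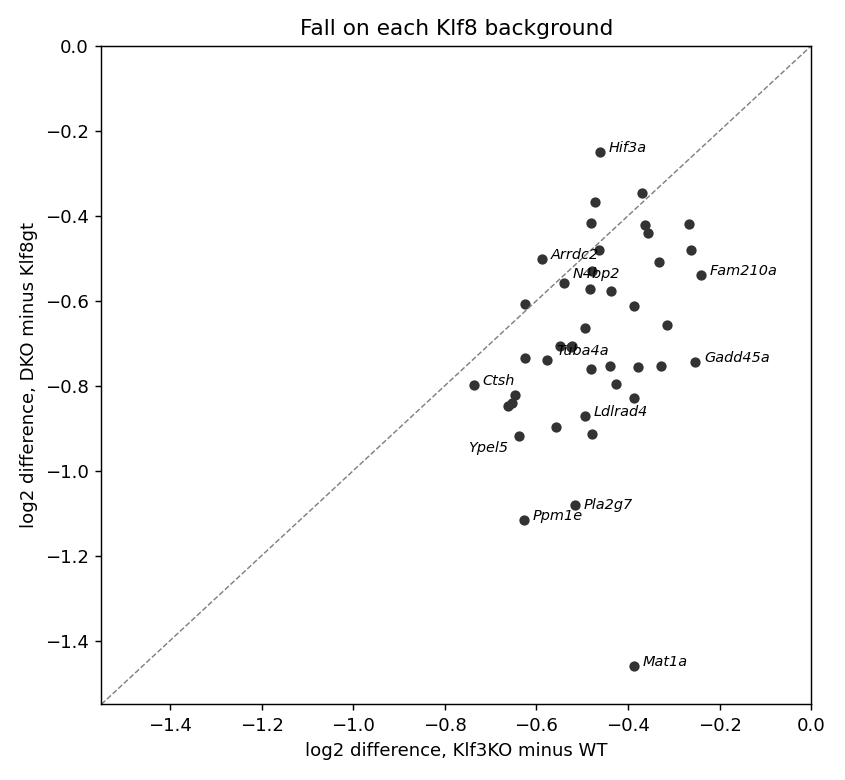
Log2 difference with Klf3 loss for each of the 43 genes, on the Klf8-intact background (Klf3KO minus WT, horizontal) and on the Klf8 gene-trap background (DKO minus Klf8gt, vertical), with a dashed line at equality. Of the 43 points, 37 lie below the line, farthest for Mat1a at -0.39 and -1.46.

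Averaged over the 43 genes, array signal was 9.02 ± 0.09 (SD, n = 4) in WT, 8.95 ± 0.07 (SD, n = 4) in Klf8gt, 8.55 ± 0.09 (SD, n = 3) in Klf3KO and 8.26 ± 0.14 (SD, n = 4) in DKO. DKO arrays were also the most variable, with a median SD per gene of 0.28 against 0.10 to 0.14 in the other genotypes. Of the 43 genes, 41 had their lowest value in a DKO array, 15 of them in DKO replicate 3 and 12 in DKO replicate 4. The choice placed each gene's lowest value among the 7 deficient arrays, of which 4 were DKO. No share over all clusters is given, so this count is a description. In these bulk samples, fewer cells of a type and less RNA per cell cannot be told apart.

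Other cell signals moved with the genotypes. The mean of 8 erythroid markers was 12.47 to 12.66 in WT, 12.36 to 12.67 in Klf8gt, 12.31 to 12.51 in Klf3KO and 12.08 to 12.54 in DKO, lowest in DKO replicates 3 and 4. Embryonic globins read 11.27 to 12.71 in WT, 11.35 to 12.72 in Klf8gt, 11.71 to 11.87 in Klf3KO and 12.51 to 13.40 in DKO, so that DKO overlapped WT and Klf8gt but not Klf3KO. The mean of 15 macrophage markers was 9.04 ± 0.12 (SD, n = 4) in WT, 8.72 ± 0.22 (SD, n = 4) in Klf8gt, 8.66 ± 0.27 (SD, n = 3) in Klf3KO and 8.01 ± 0.64 (SD, n = 4) in DKO, lowest in DKO replicate 1 at 7.23. DKO replicate 1 was also where Mat1a, Pla2g7, Ctsh, Tlr6, Denn2b, Snx18 and Slc30a1 had their lowest values. Arrays read as male by Y-linked signal were 4 of 4 in WT, 2 of 4 in Klf8gt, 1 of 3 in Klf3KO and 2 of 4 in DKO.

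**Figure D4:**
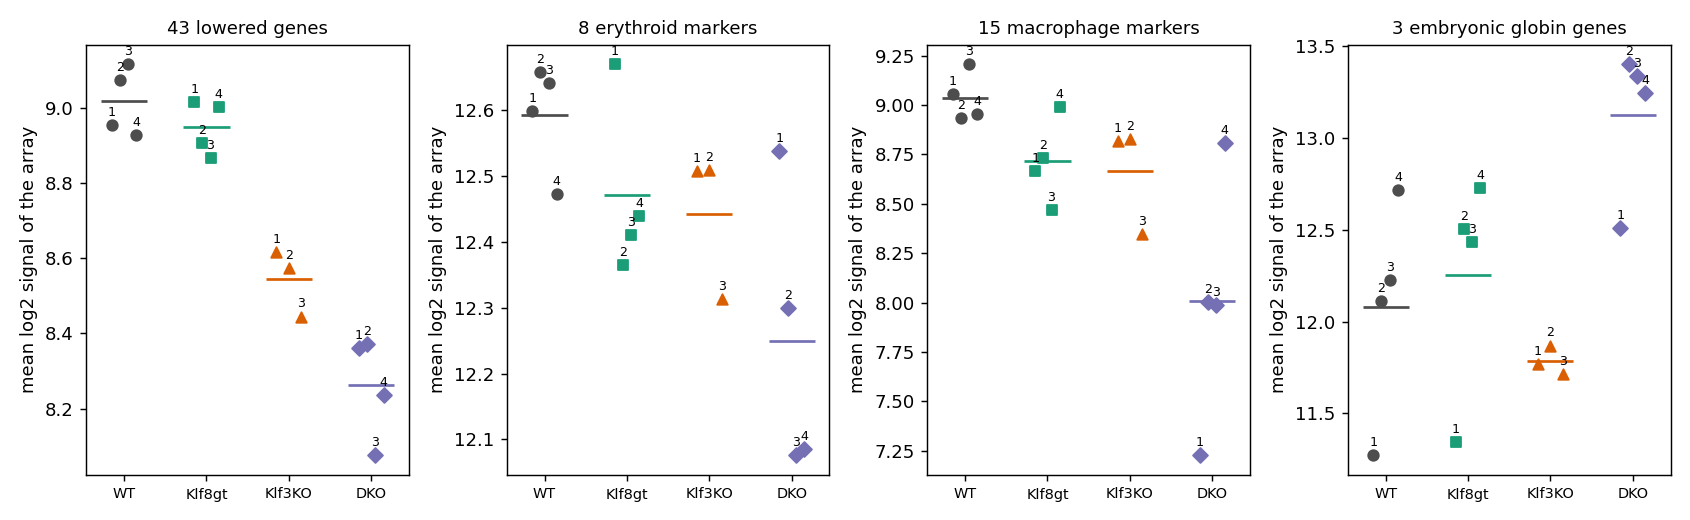
Mean log2 signal per array of the 43 lowered genes, 8 erythroid markers, 15 macrophage markers and 3 embryonic globin genes, by genotype, with replicate numbers beside the points and bars at group means. The 43 genes are lowest in DKO (8.26), where erythroid and macrophage marker signals are also lowest and embryonic globins highest.

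With these signals as covariates the differences moved by unequal amounts, and most became smaller. With the macrophage signal the median difference between deficient and intact arrays was -0.52, 7 genes had a larger difference, and 5 shrank by over 1.5 times (Ctsh, Oxct1, Pla2g7, Snx18 and Tlr6). With the erythroid signal it was -0.41, 5 genes had a larger difference (Ctsh, Denn2b, Mat1a, Pla2g7 and Slc30a1), and 17 shrank by over 1.5 times, among them Gadd45a (to -0.21), Ell2 (to -0.24), Scrn3 (to -0.28) and Ncoa7 (to -0.33). Tuba4a kept -0.61 and N4bp2 -0.53 with the erythroid signal, and Mat1a was at -1.17. With both signals the median was -0.32, and 19 of 43 differed by at least 0.35. All 43 were chosen to differ by that much in these same arrays, so the values left with covariates are a description. The macrophage signal also averages in Cd5l, a gene left out by name that met the limits. In male arrays alone, which the choice also used, the median was -0.58.

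The genes lay on 18 chromosomes, and 7 pairs were separated by at most 10 protein-coding genes, in the gene order of GRCm38.p6. Gpr155 and Scrn3 on chromosome 2 and Ldlrad4 and Fam210a on chromosome 18 were direct neighbours, Dnajb2 and Tuba4a on chromosome 1 had 1 gene between them, and Mat1a and Prxl2a on chromosome 14 had 2. Those 2 genes, Dydc2 and Dydc1, differed by -0.07 and 0.07. Near Klf3 itself on chromosome 5, Tlr6 lay 1 gene away, with Tlr1 (-0.32) between, N4bp2 14 genes away and Tmem33 23. The 13 genes measured between Klf3 and N4bp2 had a median difference of -0.07, from -0.65 to 0.16, and Tlr6 was 1 of them.

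Gene lists were used to place the set in the wider erythroid programme, with the Klf3 difference averaged over both Klf8 genotypes; this contrast shares its arrays with the choice of the 43 and was added for context. Over all clusters, 0.931% were lower and 1.45% higher by limma, with a median of -0.01. Of 18 late erythroid maturation genes measured, 1 fell (Ypel4, -0.75, adjusted p = 0.0313 by limma), and the list's median was -0.27. Among 20 erythroid transcription factors Cbfa2t3, a corepressor of the TAL1 complex, fell by 0.67 and Ldb1, its bridging cofactor, rose by 0.40. Of 19 cochaperones, Dnaja4 and Dnajb2 passed, and of 22 immune receptor signalling genes Grap2, Icos and Blnk. Dnajb2 and Blnk belong to the 43, and the others were left out by name. Dnaja4 and Grap2 met the limits of the choice and Icos did not. Apart from Icos, these counts thus follow from the choice. None of 19 interferon response genes changed by limma, and 1 had an unadjusted p under 0.05. Macrophage markers had a median of -0.56, with 1 of 15 past the threshold and 11 of 15 at an unadjusted p under 0.05 by limma. They include Cd5l, a gene left out by name that met the limits.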

How the data were processed

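RNA of TER119+ fetal liver cells was hybridised to 15 Affymetrix arrays. The authors deposited log2 signals. Their processing notes list RMA and Partek as tools, without versions, and no source used here gives a genome build. Values were used as deposited. Probes were named from the platform annotation of the series: 21789 of 35556 clusters had 1 symbol, 1621 several and 12146 none, and all 43 genes matched the gene table of GRCm38.p6. Array medians lay between 6.28 and 6.41 and correlations between arrays between 0.978 and 0.997. Precision is limited by how few arrays each genotype has.

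With a separate mean for each genotype, all 15 arrays entered a single linear model over 23410 clusters in limma 3.58.1 in R 4.3.3, with Benjamini-Hochberg adjustment and a threshold of 0.05, and was tested on simulated data. Klf8gt against WT, DKO against Klf3KO and their interaction were tested. The 20 largest differences among genes above the array medians are given with the range and median of their arrays, or with every array for Ppm1e. Other genes are given mostly by their difference. The genes and the lists were chosen with earlier results of these data known. Other scalings, covariates, array weights, a replicate block, other limits and leaving out arrays were tried; the erythroid covariate was added after seeing the data.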

Additional observations from a re-analysis of the deposited data

Results flagged for a closer look

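Among the 129 sets of 4 arrays (43 genes in WT, Klf8gt and DKO), 6 held an array far from the other three, measured by its gap to the nearest relative to the whole range; chance alone is expected to mark some of so many sets. In Klf8gt replicate 1, Pcx read 10.14 with the others at 9.76 to 9.78, Gadd45a read 11.99 with the others at 11.77 to 11.81, and Cox6b2 read 9.58 with the others at 9.46 to 9.48. In DKO replicate 3, Cox6b2 read 7.90 with the others at 8.95 to 9.12, and Tmem33 read 9.67 with the others at 10.25 to 10.33. Blnk read 5.94 in Klf8gt replicate 4, with the others at 5.60.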

How the results depend on the processing

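The median difference between deficient and intact arrays over the 43 genes ranged from -0.66 to -0.56 when single arrays were left out. It was -0.41 with the erythroid signal and -0.32 with the macrophage and erythroid signals as covariates. The number of genes found by the choice ranged from 42 to 65 when single arrays were left out, with 65 without WT replicate 4, and was 282 in male arrays alone (3 against 6 arrays, fewer to separate). For DKO against Klf3KO, 0 to 2 genes passed when single arrays were left out, with 2 without DKO replicate 1, and 4 passed without DKO replicate 1 and Klf8gt replicate 1 (Dnajb2, Ncoa7, Ell2 and Gpr155), as did 162 of all clusters; the median ranged from -0.36 to -0.21 and was -0.18 with the erythroid signal. For Klf8gt against WT, 0 to 1 passed when single arrays were left out, 1 without both of those arrays, and 6 with array weights (Ncoa7, Mat1a, Unkl, Galnt1, Pcx and Hif3a), under which 4081 of 23410 clusters passed; the median ranged from -0.11 to -0.06 and was -0.014 with the erythroid signal, when 25 of 43 lay below 0. For the interaction, 0 to 1 passed when single arrays were left out, and Mat1a was the 1 gene with array weights, without both arrays, and with the erythroid signal, where 1183, 746 and 1301 of all clusters passed; the median ranged from -0.25 to -0.11 and was -0.069 after quantile normalization. The cause of these changes was not tested.

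With the replicate number as a block, 0 genes passed in each of the 3 tests, the DKO against Klf3KO median was -0.30 and the deficient against intact median -0.62. Deviations of same-numbered arrays correlated at -0.28 to 0.13 for Klf8gt and WT and at 0.07 to 0.16 for DKO and Klf3KO. Only these comparisons were examined, and low correlations cannot show whether arrays shared a litter.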
